A study of Mus musculus with 10 samples.

Results

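Respiratory complex I is represented here by the rows of the deposited liver table whose gene symbol begins with Nduf, the naming root of the subunits of NADH:ubiquinone oxidoreductase and of several of the factors that build it. Of 16874 rows, 46 carry such a symbol, and all 46 had at least 0.5 FPKM (fragments scaled to transcript length and to the mapped fragments of the library) in at least 5 of the 10 libraries, the limit that 11242 rows passed. They comprise 38 genes classed as structural and 8 assembly factors, whose symbols begin with Ndufaf. Among the structural genes, 36 encode complex I subunits. The other 2 are Ndufa4, whose product is now assigned to cytochrome c oxidase, and its paralogue Ndufa4l2. The cell component annotation in the table names complex I for all 36 subunits and for 0 of the 8 assembly factors. The subunit gene Ndufb1 and the mitochondrially encoded subunits were not analysed here.

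The RNA was from livers of C57BL/6 males in which Pparg, encoding the nuclear receptor PPAR gamma, had been knocked out in the liver alone. The DEHP group (5 libraries) had been gavaged with DEHP, a phthalate plasticizer and activator of PPAR alpha in rodents, at 2500 mg/kg body weight. The CMC group (5 libraries) had been gavaged with 0.5% CMC (carboxymethyl cellulose), the vehicle. Every mouse in both groups carried the knockout, so a difference concerns DEHP in knockout livers, and none can be ascribed to the knockout itself. The sources used here do not give the Cre driver, the deleted exons or the length of treatment. The labels give more mice per group than libraries and do not say which mouse or pool each library came from. The p-values therefore reflect spread among these libraries, which may be technical. Wherever a mean and SD are given for DEHP or CMC livers, n = 5 counts libraries and not mice.

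Complex I is the entry point of most electrons into the respiratory chain of the inner mitochondrial membrane. Its matrix arm holds the N module, where NADH is oxidised, and the Q module, where electrons pass to ubiquinone. Its membrane arm, with a proximal and a distal part, pumps protons. The core subunits carry the catalytic chemistry, and the accessory subunits surround and stabilise them. Assembly factors join the modules and modify or insert parts, and are absent from the finished enzyme. In liver, NADH from fatty acid oxidation, the pathway that PPAR alpha activators raise, is a main source of electrons for the complex.

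The number of reads per library is unknown from FPKM values, which summed to between 688410 and 747577 per library. DEHP library 5 and CMC library 2 stood apart from their groups on principal components 3 and 2 of all tested genes, and members whose calls change without them are named below. Pparg itself was detected in every library, at 7.81, 5.5, 9.4, 7.79 and 7.04 FPKM in DEHP libraries 1 to 5, against 2.4, 4.56, 4.14, 2.72 and 5.9 FPKM in CMC libraries 1 to 5. Pparg was thus higher in DEHP libraries (log2 fold change 0.89, SE 0.21, adjusted p = 0.0118 by limma). Its single value covers all exons, so neither its level nor this difference checks the deletion. The summed level of the 10 hepatocyte markers, which include Alb, ranged from 46650 to 54080 FPKM in DEHP and from 63760 to 82160 FPKM in CMC libraries, without overlap, and 5 of the 10 fell (6 with median-of-ratios scaling and 2 with quantile normalization). The 11 Kupffer cell and macrophage markers summed to between 236 and 288 FPKM in DEHP and between 187 and 262 FPKM in CMC libraries, with 0 of 11 past the threshold by limma and 3 higher at an unadjusted p below 0.05. The 10 stellate cell markers summed to 46.9 to 74.1 FPKM in DEHP and 64.8 to 90.0 FPKM in CMC libraries (1 fell), and the 7 erythroid markers to 1061 to 1723 FPKM in DEHP and 1227 to 2433 FPKM in CMC libraries (1 of 5 tested fell). For the 8 endothelial markers the sums were 76.7 to 109 FPKM in DEHP and 79.1 to 104 FPKM in CMC libraries, for the 6 cholangiocyte markers 18.5 to 28.0 FPKM in DEHP and 20.7 to 28.5 FPKM in CMC libraries, and for the 9 lymphocyte markers 2.64 to 5.71 FPKM in DEHP and 3.04 to 4.91 FPKM in CMC libraries. These last lists had 8, 4 and 2 members tested and 0 past the threshold by limma, with 0, 1 and 0 higher at an unadjusted p below 0.05. No marker was at 0 in all 10 libraries. Of 17 circadian clock genes tested, 0 passed by limma and 3 were higher at an unadjusted p below 0.05. This does not show that clock phase was balanced between the groups. A component drawn from these genes lay between -4.361 and -2.981 in CMC libraries 1 to 3. It was 0.842 and 2.650 in CMC libraries 4 and 5. In DEHP library 3 it was -1.329, and in the other DEHP libraries it was positive, up to 3.345. Dbp averaged 26.27 ± 16.9 FPKM in DEHP and 7.714 ± 10.81 FPKM in CMC livers (SD). Its log2 fold change was 2.367 (adjusted p = 0.168 by limma). The part of cell composition in the results below was not tested, and in bulk liver a change in the share of a cell type and a change in RNA per cell cannot be told apart.

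In FPKM as deposited, 8 complex I subunit genes passed the test, and most other members had small positive differences that depended on how libraries were scaled. All 8 were higher, among them Ndufb3, Ndufa7, Ndufa10, Ndufab1, Ndufb11, Ndufs7 and Ndufs5. Their log2 fold changes ran from 0.24 to 0.58, with group means differing by a factor of 1.19 to 1.49. The 8 calls make up 17.4% of the 46 members, where 9.12% of all 11242 tested genes were called higher by limma at an adjusted p below 0.05. A total of 0 members were called lower, with 0 at an unadjusted p below 0.05, where 2.4% of tested genes were called lower. The log2 fold change was positive for 42 of 46 members and for 59.5% of all tested genes, and an unadjusted p below 0.05 in the higher direction was reached by 28 members, 60.9%, against 18.6% of tested genes. The values of the 5 DEHP and 5 CMC libraries did not overlap for 9 members, all higher in DEHP, or 19.6%, against 8.56% of tested genes higher and 2.14% lower. The median log2 fold change was 0.22 over the members and 0.06 over all tested genes.

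An FPKM value is relative to its library, and other scalings reduced most of these figures. The log2 fold change was positive for 36 of 46 members with median-of-ratios scaling, 78.3%, against 48.3% of all tested genes, and for 33 with quantile normalization, 71.7%, against 46.8%. An unadjusted p below 0.05 in the higher direction was reached by 10 members, 21.7%, against 12.7% of tested genes with median-of-ratios scaling, and by 8 members, 17.4%, against 12.1% with quantile normalization. With median-of-ratios scaling the median log2 fold change was 0.15 over the members and -0.01 over all tested genes, and with quantile normalization it was 0.08 and -0.02. Under each of these scalings 4 members stayed past the threshold, Ndufb3, Ndufa7, Ndufa10 and Ndufab1, and 0 were lower. Over all tested genes, calls numbered 1025 higher and 270 lower as deposited, 639 higher (5.68%) and 445 lower (3.96%) with median-of-ratios scaling, and 611 higher (5.43%) and 546 lower (4.86%) with quantile normalization.

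**Figure D1:**
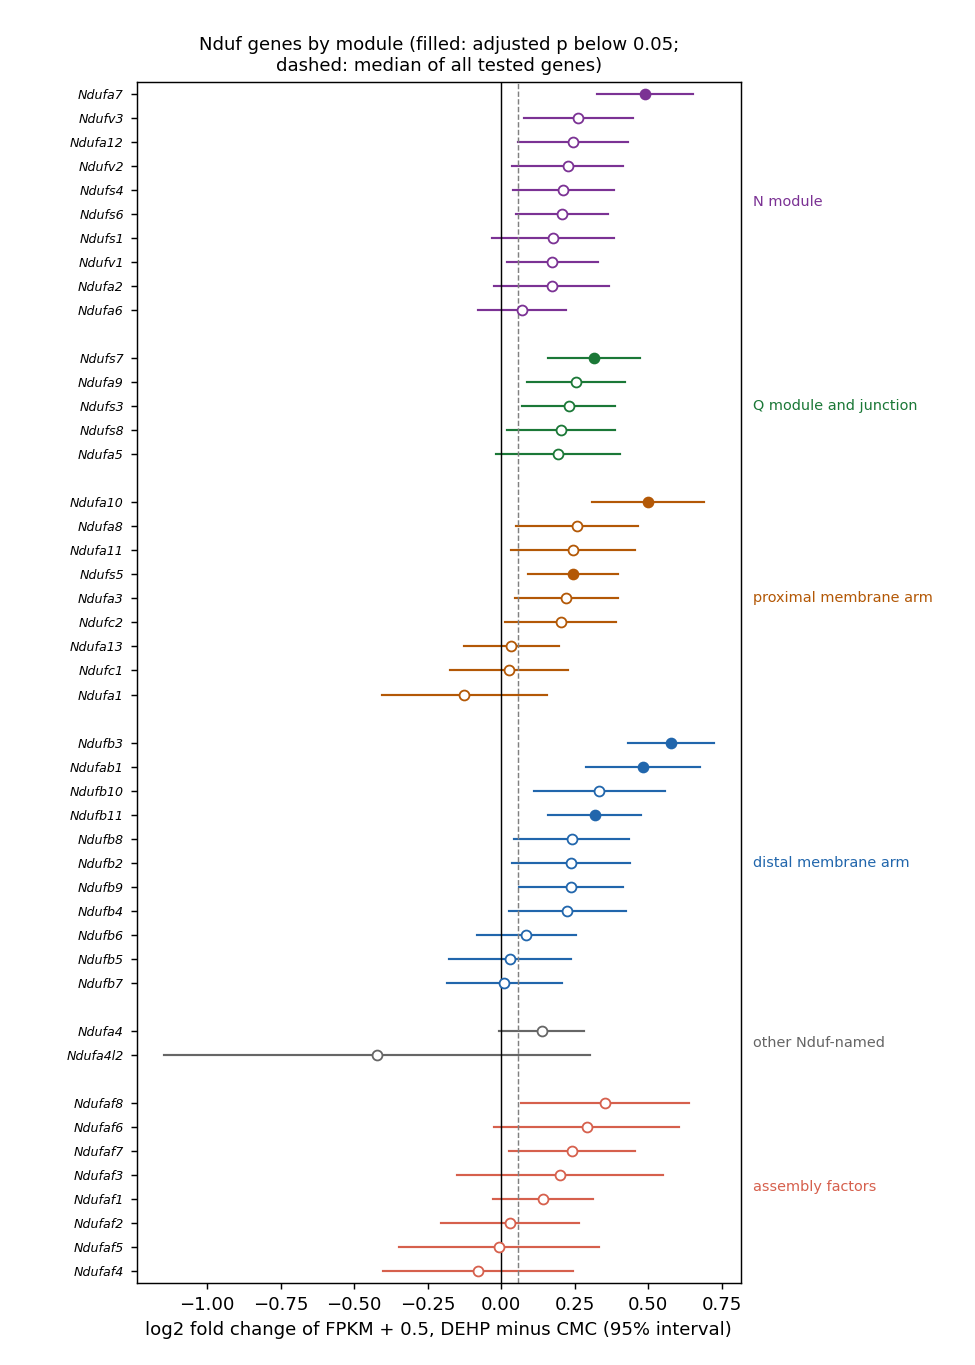
Log2 fold change (FPKM + 0.5, DEHP minus CMC) of 45 Nduf genes, with its 95% interval from limma, ordered by module. Filled points are the 7 of them past the threshold, and the dashed line is the median of all tested genes at 0.06. Most points in the 4 subunit modules lie between 0 and 0.35, while Ndufa4l2 has the lowest value and the widest interval.

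The largest fold belonged to Ndufb3, an accessory subunit of the distal membrane arm, at position 58586397 to 58595964 of chromosome 1 in GRCm38. Its level was 122, 115, 125, 130 and 121 FPKM in DEHP libraries 1 to 5, against 83.2, 75.6, 85.2, 87.2 and 79.5 FPKM in CMC libraries 1 to 5. The lowest DEHP value lay well above the highest CMC value. Ndufb3 averaged 123 ± 5.48 FPKM in DEHP and 82.1 ± 4.63 FPKM in CMC livers (SD, n = 5 each) (log2 fold change 0.58, SE 0.07, adjusted p = 0.000116). Its 95% interval, 0.43 to 0.72, lay above the median of all tested genes.

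Ndufa7, an accessory subunit of the matrix arm on chromosome 17 (33824572 to 33838316), had 344, 314, 308, 321 and 384 FPKM in DEHP libraries, against 258, 240.0, 235, 232 and 222 FPKM in CMC libraries 1 to 5. The groups did not overlap, and DEHP library 5 was the highest. Ndufa7 rose by 0.49 on the log2 scale (SE 0.08, adjusted p = 0.000916). Ndufa10, an accessory subunit on the matrix side of the membrane arm related in sequence to nucleoside kinases, lies on chromosome 1 (92439486 to 92473825). Its values were 127, 122, 115, 121 and 161 FPKM in DEHP libraries, against 84.2, 89.5, 92.9, 92.6 and 94.04 FPKM in CMC libraries 1 to 5. All CMC values lay close together and below every DEHP value, and DEHP library 5 stood above the other 4. Ndufa10 rose by 0.50 on the log2 scale (SE 0.09, adjusted p = 0.00237), and by 0.42, the lowest value with any single library left out, without DEHP library 5.

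Ndufab1 encodes the mitochondrial acyl carrier protein, which is bound in complex I and also carries growing chains in mitochondrial fatty acid synthesis and takes part in iron-sulfur cluster formation. It lies on chromosome 7 (122086815 to 122101848). Ndufab1 had 182, 207, 227, 191 and 255 FPKM in DEHP libraries, against 149, 160.4, 157, 145 and 144 FPKM in CMC libraries 1 to 5. The DEHP values were spread more widely than the CMC values, with an SD of 29.3 FPKM in DEHP and 7.36 FPKM in CMC libraries, but did not overlap with them. The log2 fold change was 0.48 (SE 0.09, adjusted p = 0.00321).

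Ndufb11, an accessory subunit of the distal membrane arm encoded on the X chromosome (20615326 to 20617619), averaged 322 ± 27.0 FPKM in DEHP and 257 ± 12.1 FPKM in CMC livers (SD, n = 5 each). The lowest DEHP library, at 285 FPKM, and the highest CMC library, at 276 FPKM, were close. Its log2 fold change was 0.32 (SE 0.07, adjusted p = 0.0114), and it missed the threshold with median-of-ratios scaling and quantile normalization. Ndufs5, an accessory subunit of the proximal membrane arm that faces the intermembrane space, had 183, 189, 213, 197 and 213 FPKM in DEHP libraries, against 160.3, 166, 159, 172 and 181 FPKM in CMC libraries 1 to 5. The groups were separated by a narrow gap. The log2 fold change of Ndufs5 was 0.24 (SE 0.07, adjusted p = 0.0404), and the gene no longer passed without any 1 of 7 libraries, DEHP libraries 3 to 5 and CMC libraries 1 to 4, with an adjusted p of up to 0.102.

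**Figure D2:**
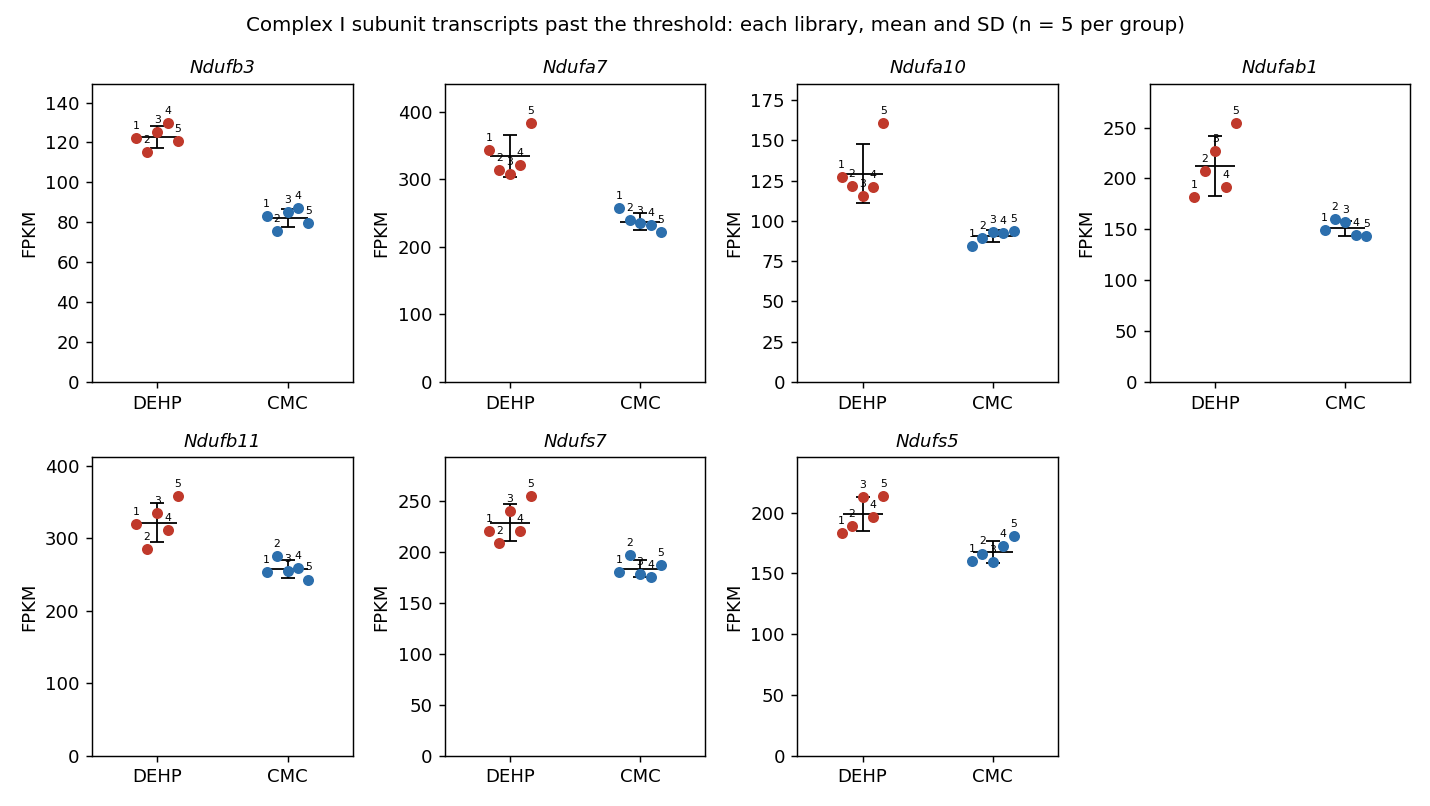
FPKM of 7 called subunit genes in each library, with replicate numbers beside the points and the group mean and SD as bars (n = 5 each, axes from 0). In every panel the lowest DEHP value is above the highest CMC value, and DEHP library 5 is the highest of its group in 6 of the 7.

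The members just inside and just outside the threshold differed little. Inside it were Ndufs7 and Ndufs5 (adjusted p = 0.0115 and 0.0404), and outside it Ndufa9, Ndufb10 and Ndufs3 (adjusted p = 0.0507, 0.0526 and 0.0597). Ndufa9, an accessory subunit at the junction of the arms, averaged 133 ± 8.12 FPKM in DEHP and 112 ± 9.82 FPKM in CMC livers, and Ndufb10, of the distal membrane arm, 295 ± 32.8 FPKM in DEHP and 235 ± 35.6 FPKM in CMC livers (SD, n = 5 each). For Ndufb10 the groups overlapped because CMC library 2, at 292.4 FPKM, was above DEHP libraries 1 to 4, which reached at most 291.6 FPKM. Without CMC library 2, Ndufa9, Ndufb10 and Ndufs3 passed (adjusted p = 0.0296, 0.00797 and 0.0493), as did Ndufv2, Ndufv3, Ndufs6 and Ndufa5, and Ndufs5 did not (adjusted p = 0.0543). Without DEHP library 5, adjusted p was 0.0843 for Ndufa9, 0.112 for Ndufb10, 0.101 for Ndufs3 and 0.0701 for Ndufs5. Without both libraries, Ndufa9 (adjusted p = 0.0456), Ndufb10 (0.00889), Ndufs6 and Ndufs1 (0.0251) passed, and Ndufs3 (0.0736) and Ndufs5 (0.0794) did not.

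In the Q module and its junction, all 6 genes had positive log2 fold changes, between 0.19 and 0.31. Of the 6, 2 rose, or 33.3%, against 9.12% of all tested genes, and 0 passed with either other scaling. Ndufs7, a core subunit beside the pocket in which ubiquinone is reduced, holds the last iron-sulfur cluster before it. Ndufs7 had 221, 209, 241, 221 and 255 FPKM in DEHP libraries, against 181, 197, 179, 175 and 187 FPKM in CMC libraries 1 to 5 (log2 fold change 0.31, SE 0.07, adjusted p = 0.0115). The groups did not overlap, with DEHP library 2 the lowest of its group and CMC library 2 the highest of its own. Ndufs3, a core subunit that carries no redox group, had 176, 175, 172, 172 and 190.4 FPKM in DEHP libraries, against 131, 159.8, 161, 154 and 152 FPKM in CMC libraries 1 to 5. It was the 1 member outside the threshold whose groups did not overlap. Ndufs8, an iron-sulfur core subunit, averaged 149 ± 18.8 FPKM in DEHP and 128 ± 5.88 FPKM in CMC livers (SD, n = 5 each) and did not pass (adjusted p = 0.153).

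In the N module, all 10 genes had positive log2 fold changes, from 0.07 to 0.49, and 1 rose, Ndufa7. That is 10%, near the 9.12% of all tested genes. The core subunits of this module did not pass. Ndufv1, which binds NADH and the flavin, averaged 132 ± 7.95 FPKM in DEHP and 117 ± 7.67 FPKM in CMC livers, a log2 fold change of 0.17 (95% interval 0.02 to 0.33, adjusted p = 0.149). Ndufv2, its iron-sulfur partner, averaged 79.4 ± 5.08 FPKM in DEHP and 68.1 ± 8.15 FPKM in CMC livers (adjusted p = 0.12, and 0.0482 without CMC library 2). Ndufs1, the largest subunit of the matrix arm and a carrier of iron-sulfur clusters, had 42.2, 47.3, 41.0, 41.7 and 31.4 FPKM in DEHP libraries, against 35.1, 37.97, 34.7, 35.5 and 35.0 FPKM in CMC libraries 1 to 5. Here DEHP library 5, the highest for most subunits, was the lowest of all 10. The log2 fold change of Ndufs1 was 0.18 (adjusted p = 0.277), and it passed the threshold without DEHP library 5 (adjusted p = 0.0317). Ndufa6, an accessory subunit at the root of the matrix arm, was among the most abundant members, with 398 ± 24.4 FPKM in DEHP and 379 ± 21.8 FPKM in CMC livers (log2 fold change 0.07, 95% interval -0.08 to 0.22, adjusted p = 0.582). Its direction turned with median-of-ratios scaling and quantile normalization.

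In the membrane arm, 2 of 9 proximal genes (22.2%) and 3 of 11 distal genes (27.3%) rose, against 9.12% of all tested genes. Under each of the other scalings these calls became 1 proximal and 2 distal. Ndufb9, a distal subunit and the most abundant of the 36, had 439.8, 404, 462, 456 and 535 FPKM in DEHP libraries, against 389, 421, 396, 389.5 and 349 FPKM in CMC libraries 1 to 5, with overlap from CMC library 2 (log2 fold change 0.24, SE 0.08, adjusted p = 0.0818). Some genes of this arm differed by under 10% between the group means, among them the distal Ndufb5 and Ndufb7 and the proximal Ndufc1 and Ndufa13, whose direction turned with both other scalings. Ndufa1, a small proximal subunit needed for assembly and encoded on the X chromosome, was the 1 subunit with a negative log2 fold change. Its levels were 171, 111, 150.4, 179 and 123 FPKM in DEHP libraries, against 148, 172, 185, 137 and 151 FPKM in CMC libraries 1 to 5. The ranges overlapped widely, with the highest value in CMC library 3 and the lowest in DEHP library 2, and the log2 fold change of -0.12 had a 95% interval of -0.41 to 0.16 (adjusted p = 0.608).

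Both Nduf-named genes outside complex I were without a call. Ndufa4 was the most abundant of the 46, with 878 ± 33.6 FPKM in DEHP and 799 ± 52.2 FPKM in CMC livers (SD, n = 5 each), a log2 fold change of 0.14 (95% interval -0.01 to 0.28, adjusted p = 0.219), close to 0 with quantile normalization. Ndufa4l2, known as a gene induced by low oxygen, had 3.36, 1.55, 1.27, 0.32 and 2.33 FPKM in DEHP libraries, against 1.82, 2.24, 2.04, 3.08 and 1.93 FPKM in CMC libraries 1 to 5. The DEHP values enclosed all of the CMC values, and the log2 fold change of -0.42 had a 95% interval of -1.15 to 0.30.

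Of the 8 Ndufaf assembly factors, 0 passed the threshold by limma, where 9.12% of all tested genes were called higher. At an unadjusted p below 0.05, 2 were higher, or 25%, against 18.6% of tested genes. Exact permutation tests also gave 2 before adjustment. After it their smallest p over all tested genes was 0.0742, so no gene passed and that result says nothing particular to the factors. Ndufaf8, which stabilises Ndufaf5, was the most abundant of the 8 factors and had the largest fold among them. Its values were 65.8, 57.9, 83.9, 72.2 and 83.6 FPKM in DEHP libraries, against 68.5, 61.6, 62.3, 48.7 and 44.1 FPKM in CMC libraries 1 to 5, which overlap. The log2 fold change of 0.35 had an SE of 0.13, larger than that of any called subunit, and an adjusted p of 0.111. Ndufaf7, a methyltransferase, averaged 7.06 ± 0.623 FPKM in DEHP and 5.89 ± 0.38 FPKM in CMC livers (log2 fold change 0.24, adjusted p = 0.145). Ndufaf6, an early-acting factor, averaged 17.6 ± 2.08 FPKM in DEHP and 14.6 ± 3.81 FPKM in CMC livers (log2 fold change 0.29, adjusted p = 0.235). CMC library 3, with 20.9 FPKM, was the highest of the 10 for Ndufaf6, and the gene passed the threshold without it.

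Ndufaf1, which joins the intermediates of the membrane arm together with Acad9, Ecsit and Tmem126b, averaged 18.5 ± 0.705 FPKM in DEHP and 16.7 ± 1.14 FPKM in CMC livers (log2 fold change 0.14, adjusted p = 0.289). Ndufaf3 and Ndufaf4 work together on the Q module. Ndufaf3 averaged 13.1 ± 2.32 FPKM in DEHP and 11.5 ± 3.33 FPKM in CMC livers, with CMC library 4 at 17.2 FPKM and the other 4 at or below 11.7 FPKM. Ndufaf4 averaged 6.46 ± 1.66 FPKM in DEHP and 6.72 ± 0.754 FPKM in CMC livers, a log2 fold change of -0.08 (95% interval -0.40 to 0.24). Ndufaf2, a paralogue of Ndufa12, averaged 25.4 ± 2.54 FPKM in DEHP and 25.0 ± 3.9 FPKM in CMC livers (log2 fold change 0.03, 95% interval -0.20 to 0.27). Ndufaf5, which hydroxylates Ndufs7, was the least abundant member, with 1.82, 2.49, 2.15, 1.21 and 1.83 FPKM in DEHP libraries, against 1.75, 2.08, 1.99, 1.6 and 1.98 FPKM in CMC libraries 1 to 5, and its 95% interval was -0.35 to 0.33. The upper bounds of the 95% intervals of the 8 factors ran from 0.24 (Ndufaf4) to 0.64 (Ndufaf8).

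Structural genes and assembly factors differed far more in level than in fold. The mean over all 10 libraries was at least 29.3 FPKM for every subunit, with a median of 163 FPKM over the 36, and reached from 1.89 to 64.9 FPKM over the factors, with a median of 14.2 FPKM. Of the 38 structural genes, 34 were above the most abundant factor. In fold, the median log2 value was 0.23 over the structural genes and 0.17 over the factors, and 3 of the 8 factors lay above the structural median. The summed level of the 36 subunits was 7226 ± 558 FPKM in DEHP and 6177 ± 299 FPKM in CMC livers, and that of the 8 factors 163 ± 10.9 FPKM in DEHP and 139 ± 10.8 FPKM in CMC livers (SD, n = 5 each), a ratio of 1.17 for both. The factors' ratio rested largely on Ndufaf8, which did not pass the test. Without it the other 7 summed to 90.0 ± 3.25 FPKM in DEHP and 82.3 ± 7.38 FPKM in CMC livers, a ratio of 1.09. The median log2 values of structural genes and factors were 0.1497 and 0.0976 with median-of-ratios scaling. With quantile normalization these medians were 0.0793 and 0.0776. Calls were 8 of 38, or 21.1%, against 0 of 8, where 9.12% of all tested genes were called higher by limma. With so few factors, 0 calls lies near that share. The median SE of the log2 fold change was also larger for factors, 0.14, than for structural genes, 0.09. No test of the difference between these kinds of gene was made, since members are not replicates.

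**Figure D3:**
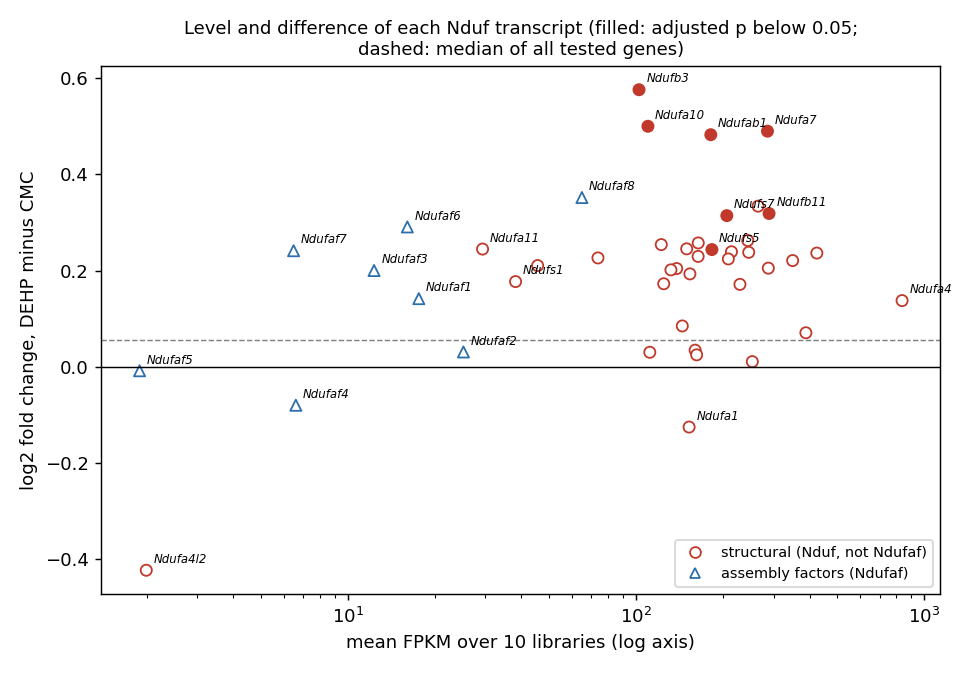
Mean FPKM over the 10 libraries (log axis) against the log2 fold change, DEHP minus CMC, for 37 structural genes (circles) and the 8 assembly factors (triangles). Filled symbols are called genes and the dashed line is the median of all tested genes at 0.06. The factors lie to the left at lower levels, with folds inside the range of the structural genes.

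Within a group, the same libraries tended to be high or low for many subunits. DEHP library 5 held the highest DEHP value for 27 of the 36 subunits and DEHP library 2 the lowest for 24. In the CMC group, library 2 held the highest value for 23 subunits and library 1 the lowest for 13. As the median deviation of the subunits from each gene's mean over the 10 libraries, on the log2 scale, DEHP libraries 1 to 5 stood at 0.10, -0.0007, 0.12, 0.10 and 0.26, against -0.18, 0.0068, -0.12, -0.10 and -0.13 in CMC libraries 1 to 5. The groups overlapped by this measure, because DEHP library 2 fell just under CMC library 2. For the 8 factors the same median was 0.0058, 0.13, 0.06, 0.15 and 0.045 in DEHP libraries, against -0.14, -0.02, -0.03, -0.08 and -0.12 in CMC libraries 1 to 5, with no overlap. DEHP library 4, not 5, was the highest for the factors. Leaving out DEHP library 2 raised the number of called members to 13, and leaving out CMC library 2 raised it to 14.

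**Figure D4:**
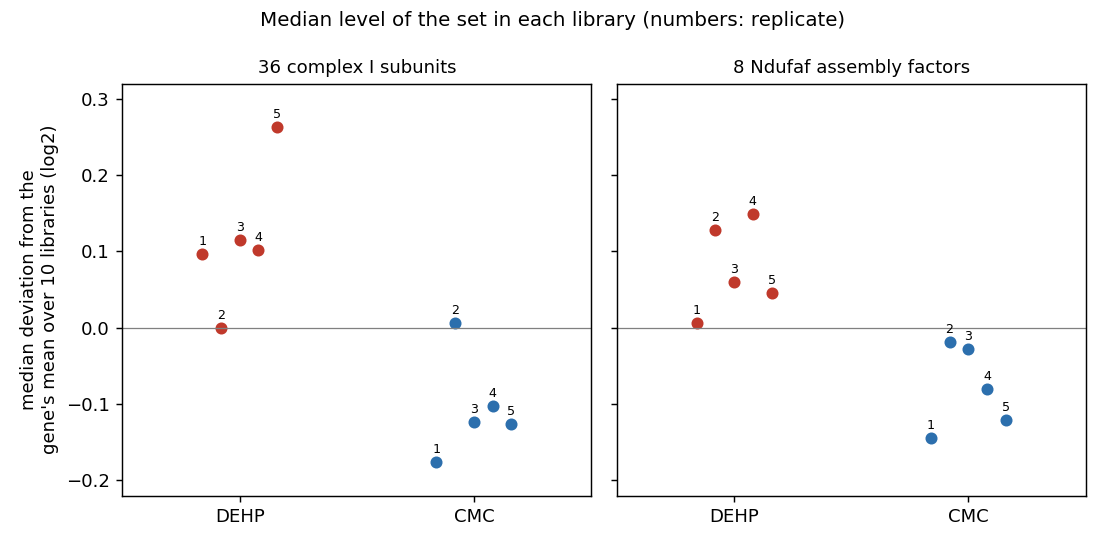
Median, over the 36 complex I subunits (left) and the 8 Ndufaf assembly factors (right), of each gene's deviation from its mean over the 10 libraries on the log2 scale, with replicate numbers. In the subunits DEHP library 2 (-0.0007) and CMC library 2 (0.0068) meet, and DEHP library 5 is highest at 0.26.

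Other genes of the pathway were read from lists whose members do not carry Nduf names. Of 11 further complex I assembly factors, 4 rose, or 36.4%, against 9.12% of all tested genes, and 0 fell. Their median log2 fold change was 0.33, with all 11 positive. Nubpl, which delivers iron-sulfur clusters to complex I, averaged 13.0 ± 1.70 FPKM in DEHP and 8.81 ± 1.26 FPKM in CMC livers (log2 fold change 0.53, SE 0.12, adjusted p = 0.00975). Timmdc1, a membrane arm factor, averaged 21.5 ± 2.29 FPKM in DEHP and 15.5 ± 1.30 FPKM in CMC livers (log2 fold change 0.46, adjusted p = 0.00517). Acad9, a relative of the acyl-CoA dehydrogenases that works in assembly, and Tmem70, which also serves ATP synthase, had log2 fold changes of 0.44 and 0.34 (adjusted p = 0.0075 and 0.00772). Calls were thus 4 of 11 for these factors and 0 of 8 for the Ndufaf genes, a difference that was not tested. With median-of-ratios scaling 4 of the 11 were past the threshold and with quantile normalization 3. Of 12 regulators of nuclear-encoded respiratory genes, 1 rose, or 8.33%, no more than the 9.12% of all tested genes. It was the nuclear receptor gene Esrra (log2 fold change 0.31, SE 0.09, adjusted p = 0.038). Esrra had 14.75, 19.3, 17.8, 16.52 and 16.28 FPKM in DEHP libraries, against 13.85, 13.89, 14.25, 12.77 and 12.74 FPKM in CMC libraries 1 to 5. With either other scaling 0 of the 12 regulators passed by limma. Ppargc1a, a coactivator of mitochondrial genes, was at 1.43 ± 0.476 FPKM in DEHP and 1.55 ± 0.497 FPKM in CMC livers (adjusted p = 0.836), and Nrf1 at 1.69 ± 0.249 FPKM in DEHP and 2.31 ± 0.367 FPKM in CMC livers (adjusted p = 0.137).

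The nuclear-encoded subunits of the other respiratory complexes had similar medians, 0.20 for complex II, 0.25 for complex III, 0.23 for complex IV and 0.18 for ATP synthase, against 0.23 for the 36 subunits of complex I. With median-of-ratios scaling these medians were 0.12, 0.18, 0.16 and 0.11, against 0.15 in complex I, and with quantile normalization 0.03, 0.10, 0.08 and 0.05, against 0.08. Calls, all higher, numbered 1 of 4, 4 of 9, 6 of 11 and 4 of 15 in these complexes, against 8 of 36 in complex I. As shares these were 25%, 44.4%, 54.5% and 26.7%, against 22.2% in complex I and 9.12% of all tested genes. Under each of the other scalings the calls numbered 0, 1, 1 and 1, against 4 in complex I. No difference between the complexes was tested.

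Some members share reads with near-identical copies, which the counting could have split in ways not given in the sources used here. A match of at least 200 bases at 95% identity or more to a transcript of another gene was found for 13 of the 46, partly pseudogenes and partly overlapping neighbours. These include 4 of the 8 called genes, Ndufb3, Ndufab1, Ndufb11 and Ndufs5. The 33 members without such a match had 4 calls, all higher, or 12.1%, against 9.12% of all tested genes. Their median log2 fold change was 0.21. The 13 with a match had 4 calls, all higher, or 30.8%, and a median of 0.23. The share called was thus higher among members with a match, a difference that rests on few genes and was not tested. At an unadjusted p below 0.05 by limma, 57.6% of the 33 and 69.2% of the 13 were higher, against 18.6% of all tested genes. Whether reads were counted by strand is also not given, so overlapping antisense transcripts cannot be separated.

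The genes of the complex are scattered, with the 46 on 17 chromosomes and at most 6 on any one. Promoter windows of 300 bases, 250 before and 50 after the RefSeq start in GRCm38.p6, were held for 40 members (42 windows). They are rich in C and G, with a median of 59.3% against 52.7% over 32851 windows of all genes, and 0 of 42 held the letters TATAAA shortly before the start, against 2.22% of all windows. Searched on both strands, the NRF1 motif (GCGC and TGCGC parted by 1 base of any kind) was in 10 windows, 23.8%, against 4.6% of all windows, and the YY1 motif AAGATGGC in 8, 19%, against 2.75%. The motif CCGGAAG of GABPA and other ETS factors was in 6 windows, 14.3%, against 8.86%. The NRF1 and ETS motifs hold the pair CG. Its median ratio of observed to expected counts was 0.83 in the member windows, against 0.38 in all windows. No windows of matched base content were compared, and all windows include genes not tested here. The letters TCAAGGTCA, bound by the Esrra product, and the PPAR-RXR repeat, AGGTCA given again after 1 base of any kind, were in 0 of 42 windows, against 0.423% and 0.0396% of all windows. The last pair of motifs share the letters AGGTCA, so 1 stretch could match both in part. Any of the 5 motifs was held by 2 of the 7 called members with a window and by 19 of the 33 others, a difference that rests on few genes and was not tested.

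As examples only, the 120 bases before the start are given, 5′ to 3′ in the direction of the gene. They are for called genes with and without a motif and for an uncalled gene with the NRF1 motif more than once. Capitals mark matches to the NRF1 motif or its reverse complement. All 3 lie on the minus strand of GRCm38, Ndufs5 at chr4:123718187-123718306, Ndufab1 at chr7:122101849-122101968 and Ndufb4 at chr16:37654369-37654488.
Ndufs5: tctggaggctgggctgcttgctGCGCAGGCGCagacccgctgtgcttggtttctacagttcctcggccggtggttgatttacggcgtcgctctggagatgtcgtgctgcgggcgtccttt
Ndufab1: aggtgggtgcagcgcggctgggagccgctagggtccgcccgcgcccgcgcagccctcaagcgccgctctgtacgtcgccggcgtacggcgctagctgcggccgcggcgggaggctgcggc
Ndufb4: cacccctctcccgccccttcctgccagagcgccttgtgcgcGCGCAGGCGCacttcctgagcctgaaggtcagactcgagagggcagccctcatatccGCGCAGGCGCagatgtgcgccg
Ndufs5, called at a log2 fold change of 0.24, has 1 match, which begins 98 bases before its start. Ndufab1, called at 0.48, has none in these letters. Ndufb4, a distal subunit with 226 ± 31.6 FPKM in DEHP and 192 ± 14.5 FPKM in CMC livers, has 2 in the stretch shown and was not called (log2 fold change 0.22, adjusted p = 0.145). A match is a description of the sequence and not evidence of binding.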

How the data were processed

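Sequencing libraries were prepared from total liver RNA using the TruSeq kit of Illumina, per the labels' protocols. Per the file headers, the values as deposited are FPKM, with a column for each library. Cuffdiff, mm10 and GRCm38 appear in the submitters' processing notes without a version or role. No aligner is given in the sources used here. Gene coordinates came from a GRCm38.p6 gene table, by NCBI gene ID, for all 46 members.

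Testing covered rows that reached 0.5 FPKM in 5 or more of the 10 libraries, as log2(FPKM + 0.5), a scale that understates the change of low genes. Limma 3.58.1 (R 4.3.3) was fitted to both groups as DEHP minus CMC, its variance prior following intensity and made robust to outliers. P-values were adjusted by Benjamini-Hochberg over all 11242 tested genes, at a threshold of 0.05. The fit was tested on simulated data only with changes larger than those of the members, so its calls at their size were not checked. Exact permutation tests, two-sided over 252 regroupings, have a smallest p of 0.00794. Near-identical copies were searched with BLAST 2.17.0 in GENCODE transcripts. No column is a copy of another, since any 2 libraries shared the same value for at most 0.943% of tested genes. This does not show whether libraries share a mouse or pool.

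Named with values were the assembly factors, the core subunits, the 8 other members of smallest p, the 3 lowest and 3 highest folds, the 3 highest means and 3 members on each side of the threshold, 27 in all, beside 1 item that enters counts and sums but is not reported here. Further members named were picked after their values were seen. The members, lists and alternatives were chosen with earlier results of these data known. Alternatives tried were a pseudocount of 0.1 or 1, a minimum of 2 FPKM or none, scaling by median of ratios or by quantiles, leaving out the 10 most abundant genes, a plain limma prior, array weights, a replicate block, a covariate from 17 clock genes, permutation, and left-out libraries.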

Additional observations from a re-analysis of the deposited data

Results flagged for a closer look

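A library standing apart from the other 4 of its group by Dixon's criterion was looked for in 54 sets of 5 values, 27 members in each group, of which chance alone gives about 1 in 20. The criterion was met 3 times. Ndufa10 in DEHP library 5 had 161.1 FPKM, with the nearest other DEHP library at 127 FPKM. Ndufs3 had 190.4 FPKM in the same library, next to 175.6 FPKM. Ndufs1 had 37.97 FPKM in CMC library 2, next to 35.45 FPKM. All 3 are high values, in the libraries that stood apart over all genes.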

How the results depend on the processing

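The 8 calls became 4 with median-of-ratios scaling, 4 with quantile normalization, 5 with the replicate block, 13 with array weights and 0 by exact permutation (smallest adjusted p over all genes 0.0742, with 28 members below 0.05 unadjusted). All calls under these settings were structural, and the circadian covariate gave 5 structural calls. The 28 members below 0.05 unadjusted by permutation were 26 structural genes and 2 factors. Leaving out single libraries gave 6 to 14. The factors' count was 1 under the covariate (Ndufaf8) and 0 to 1 with single libraries left out. Over all tested genes, 1025 higher and 270 lower calls became 639 and 445 with median-of-ratios scaling, 611 and 546 with quantile normalization, 615 and 161 with the covariate, and 0 and 0 by permutation, with 2086 and 741 below 0.05 unadjusted by limma. The structural median of 0.23 became 0.1497 with median-of-ratios scaling and 0.0793 with quantile normalization. The factors' median of 0.17 became 0.0976 and 0.0776 with the same scalings. Calls for Ndufb3, Ndufa7, Ndufa10 and Ndufab1 held under every alternative but permutation. The sign turned for 6 members by median of ratios and 9 by quantiles, none of them called: Ndufa13, Ndufb5, Ndufc1 and Ndufb7 with both, Ndufa2 and Ndufb6 by quantiles, Ndufa4 (-0.0094, quantile), Ndufa6 (-0.0050 by median of ratios and -0.0097 by quantiles) and Ndufaf2 (-0.0433 and -0.0899 likewise). Among the 27 members named by rule, with the covariate it turned for Ndufa1 (0.0322) and Ndufaf5 (0.0006). Ndufaf5 was 0.0269 without DEHP library 5 and CMC library 2. Of these 27, with single libraries left out the sign turned for Ndufaf2, Ndufaf4 and Ndufaf5: Ndufaf2 ranged from -0.0400 to 0.1111, Ndufaf4 from -0.1971 to 0.0100 and Ndufaf5 from -0.0932 to 0.1083. The cause was not tested. Same-numbered libraries did not pair (correlations of their deviations -0.07 to 0.05), so the replicate block rests on a shared number only. Depth is unknown, which leaves the precision of low values such as those of Ndufaf5 unstated.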
